A study of Mus musculus with 8 samples.

Results

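The circadian clock genes described here are 10 transcripts of the molecular clock, namely Arntl, Clock, Npas2, Per1, Per2, Per3, Cry1, Nr1d1, Nr1d2 and Dbp, which were taken by name from gene counts of 8 mouse hearts. They are 10 of 55471 genes counted, and all 10 were among the 15084 genes that had enough reads for testing. RNA came from a small piece of heart of 4 wild-type (WT) and 4 TAZG197V mice, untreated and 14 weeks old. TAZG197V mice carry, by CRISPR/Cas9 knock-in, a missense mutation found in a patient with Barth syndrome, in the X-linked gene Taz, whose product Tafazzin remodels the mitochondrial lipid cardiolipin. The line was made in C57BL/6N embryos, the founders that carried the edit were bred to C57BL6/J, and the edit is present throughout the body. The labels and the study's methods speak of homozygous offspring, whereas the study's results state that only hemizygous males were used. The study states a cycle of equal light and dark for the mice of its drug treatment and gives no other cycle for the mice sequenced here. The number of founders and the hour at which hearts were taken are not given in the sources used here, nor is the animal behind each library, so p-values measure the spread between these libraries. The sequencing runs place libraries 1 and 2 of each genotype in lane 7 and libraries 3 and 4 in lane 8. A lane is a compartment of the sequencer and does not give the day or hour of dissection.

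The libraries held 23055689 to 36301031 counted reads. Cardiomyocyte markers, 6 genes such as Myh6 and Tnnt2, summed to 45493 to 60976 CPM, which are counts scaled to library size, in every library. By contrast, 4 of 4 skeletal muscle markers stayed under 1 CPM. The summed cardiomyocyte markers did not overlap between genotypes (54370 to 60976 CPM in WT, 45493 to 49684 CPM in TAZG197V). Of these 6 genes, 3 were called lower in TAZG197V, beside 15.1% of all genes. Myl2 of this list overlapped (5875 to 9273 CPM in WT, 6358 to 7102 CPM in TAZG197V) and did not pass (adjusted p = 0.261 by edgeR). The summed fibroblast markers did not overlap either (827 to 1336 CPM in WT, 566 to 770 CPM in TAZG197V), and 3 of 4 were called lower. Of 4 endothelial markers 2 were called lower, and of 4 macrophage markers 0. The sums of these lists overlapped between genotypes (endothelial 566 to 813 CPM in WT, 453 to 597 CPM in TAZG197V). Some libraries stood apart for other tissues. Brain markers, 7 genes such as Slc1a2, summed to 118 CPM in WT 4 and 277 CPM in TAZG197V 4 but to 11.6 to 17.6 CPM in the other 6 libraries. Red cell markers, 6 genes that include the globins, summed to 55072 CPM in WT 4 and to 227 to 1065 CPM elsewhere. Atrial markers, 4 genes, reached 1057 CPM in WT 2 against 3.79 to 130 CPM elsewhere. In a piece of tissue, fewer cells of a type and less RNA per cell cannot be told apart. The part of these signals in the results on clock genes was not tested, but values without both number 4 libraries are given.

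The clock of mammalian cells is a feedback loop of transcription. ARNTL (also called BMAL1) pairs with CLOCK or its relative NPAS2, binds E-box sequences and activates the Per and Cry genes, whose proteins return to the nucleus and block that pair. A second loop runs through the nuclear receptors NR1D1 and NR1D2, also called REV-ERB alpha and beta, which are driven by E-boxes and repress Arntl at ROR elements, while DBP carries the rhythm to further genes through D-boxes. In heart, as in other tissues, Arntl and Npas2 therefore peak at about the opposite time of day to Dbp, Nr1d1 and Per3, Clock varies less, and a mouse heart taken at one hour shows one phase of this cycle.

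To show these elements in the genes themselves, the 250 bases before each annotated transcription start were read from RefSeq (GRCm38.p6, build mm10). Of the 10 members, 9 matched by symbol, with 13 start sites; Per2 did not match. The letters CACGTG (E-box), TTATGNAA (D-box) and ANTNGGTCA (ROR element) were searched on both strands. In windows of this length an E-box was present in 6.02%, a D-box in 3.07% and a ROR element in 1.87% of 32851 windows of all genes. The windows of 3 members held any of the 3 motifs. They are shown with Ciart, a clock gene of the wider pathway whose level differed most clearly between genotypes. Capitals mark the motifs. The Per1 window (chr11:69098699-69098948, plus strand) held an E-box that began 166 bases before the start and a D-box that began 24 bases before it.
Per1: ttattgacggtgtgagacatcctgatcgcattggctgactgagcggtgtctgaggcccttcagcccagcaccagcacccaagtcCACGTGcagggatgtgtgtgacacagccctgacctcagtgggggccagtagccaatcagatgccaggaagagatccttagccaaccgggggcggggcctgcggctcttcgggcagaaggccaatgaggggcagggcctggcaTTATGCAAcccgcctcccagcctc
The Per3 window (chr4:151044666-151044915, minus strand) held D-boxes that began 205 and 158 bases before the start.
Per3: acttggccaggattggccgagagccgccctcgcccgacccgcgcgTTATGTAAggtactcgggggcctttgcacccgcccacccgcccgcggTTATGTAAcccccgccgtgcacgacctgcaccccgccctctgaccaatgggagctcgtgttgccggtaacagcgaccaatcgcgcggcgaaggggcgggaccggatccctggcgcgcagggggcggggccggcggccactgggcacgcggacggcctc
The Cry1 window (chr10:85185055-85185304, minus strand) held an E-box that began 60 bases before the start.
Cry1: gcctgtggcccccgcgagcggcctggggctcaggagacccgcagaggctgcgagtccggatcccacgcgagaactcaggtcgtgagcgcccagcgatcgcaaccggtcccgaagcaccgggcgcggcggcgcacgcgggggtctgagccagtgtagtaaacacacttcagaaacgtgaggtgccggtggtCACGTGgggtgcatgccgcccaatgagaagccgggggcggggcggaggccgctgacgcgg
The Ciart window (chr3:95882229-95882478, minus strand) held E-boxes that began 116, 58 and 44 bases before the start.
Ciart: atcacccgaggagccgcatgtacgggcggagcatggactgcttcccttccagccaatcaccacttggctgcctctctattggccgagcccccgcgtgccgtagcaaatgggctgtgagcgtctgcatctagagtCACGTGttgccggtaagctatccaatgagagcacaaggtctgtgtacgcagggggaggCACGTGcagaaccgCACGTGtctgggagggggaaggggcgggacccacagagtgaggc
Within the 50 bases after the second annotated start of Arntl lay a ROR element, which began at base 29 (chr7:113207531-113207555, plus strand, for the stretch shown). A ROR element lay in this 50-base stretch in 0.307% of all windows.
Arntl: aggcagaaAGTAGGTCAgggacgga
The other windows of members held none of these letters, which says nothing of more distant or less exact sites.

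Per kilobase of exon, the 10 genes covered a wide range of levels in WT hearts. Nr1d1 was the highest at 33.2 CPM per kilobase, followed by Nr1d2 at 20.4 and Dbp at 11.5. Npas2 was the lowest at 1.18, with Per2 at 1.89 and Arntl at 2.38. In TAZG197V hearts, Nr1d1 stood at 25.4 and Nr1d2 at 21.9 CPM per kilobase, while Npas2 (0.916) and Arntl (1.14) were the lowest. Dbp shared 18.0% of its exon bases with Sphk2 on the opposite strand and Nr1d1 shared 8.55% with Thra, so these levels are uncertain, because the strand setting of the counting is not given. Within the WT group the highest and the lowest library differed 5.64-fold for Per1, 4.89-fold for Per2, 3.99-fold for Dbp and 3.89-fold for Arntl, but 1.23-fold for Clock. Within TAZG197V the widest of these spreads was 2.49-fold, for Arntl.

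The comparison of genotypes asks whether loss of Tafazzin function goes with another state of the clock in the heart. Arntl and Cry1 passed the test as lower in TAZG197V, and the other 8 members did not pass. Calls were made with edgeR and required an adjusted p under 0.05, a fitted level more than 15% higher in one genotype than in the other, and a mean scaled count of 50 or more. By this rule 33.5% of all tested genes were called, 18.5% as higher and 15.1% as lower, so 2 of 10 members (0 higher, 2 lower) is no more than the share among all genes. The median fitted log2 fold change of the members was −0.08, beside −0.01 over all genes. The libraries of both genotypes overlapped for every member, whereas 33.2% of all genes showed no overlap. On omission of 1 library the number of members called was 6 without WT 1, beside 27.5% of all genes, and 4 without TAZG197V 4, beside 33.9%. It was 1 without WT 3, WT 4 or TAZG197V 1, beside 30.6%, 32.8% and 25.7% of all genes, and 2 without WT 2 or TAZG197V 3, beside 34.6% and 31.1%. Without TAZG197V 2 it was 0 by edgeR, beside 24.1% of all genes, with 2 members under an unadjusted p of 0.05. Without both number 4 libraries 5 of 10 were called, beside 17.4% of all genes, with Arntl and Cry1 lower and Per1, Per2 and Nr1d2 higher, but 0 of 10 when the same 6 libraries were fitted by edgeR with no surrogate variables, beside 30.6% of all genes, with 2 members under an unadjusted p of 0.05.

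**Figure D1:**
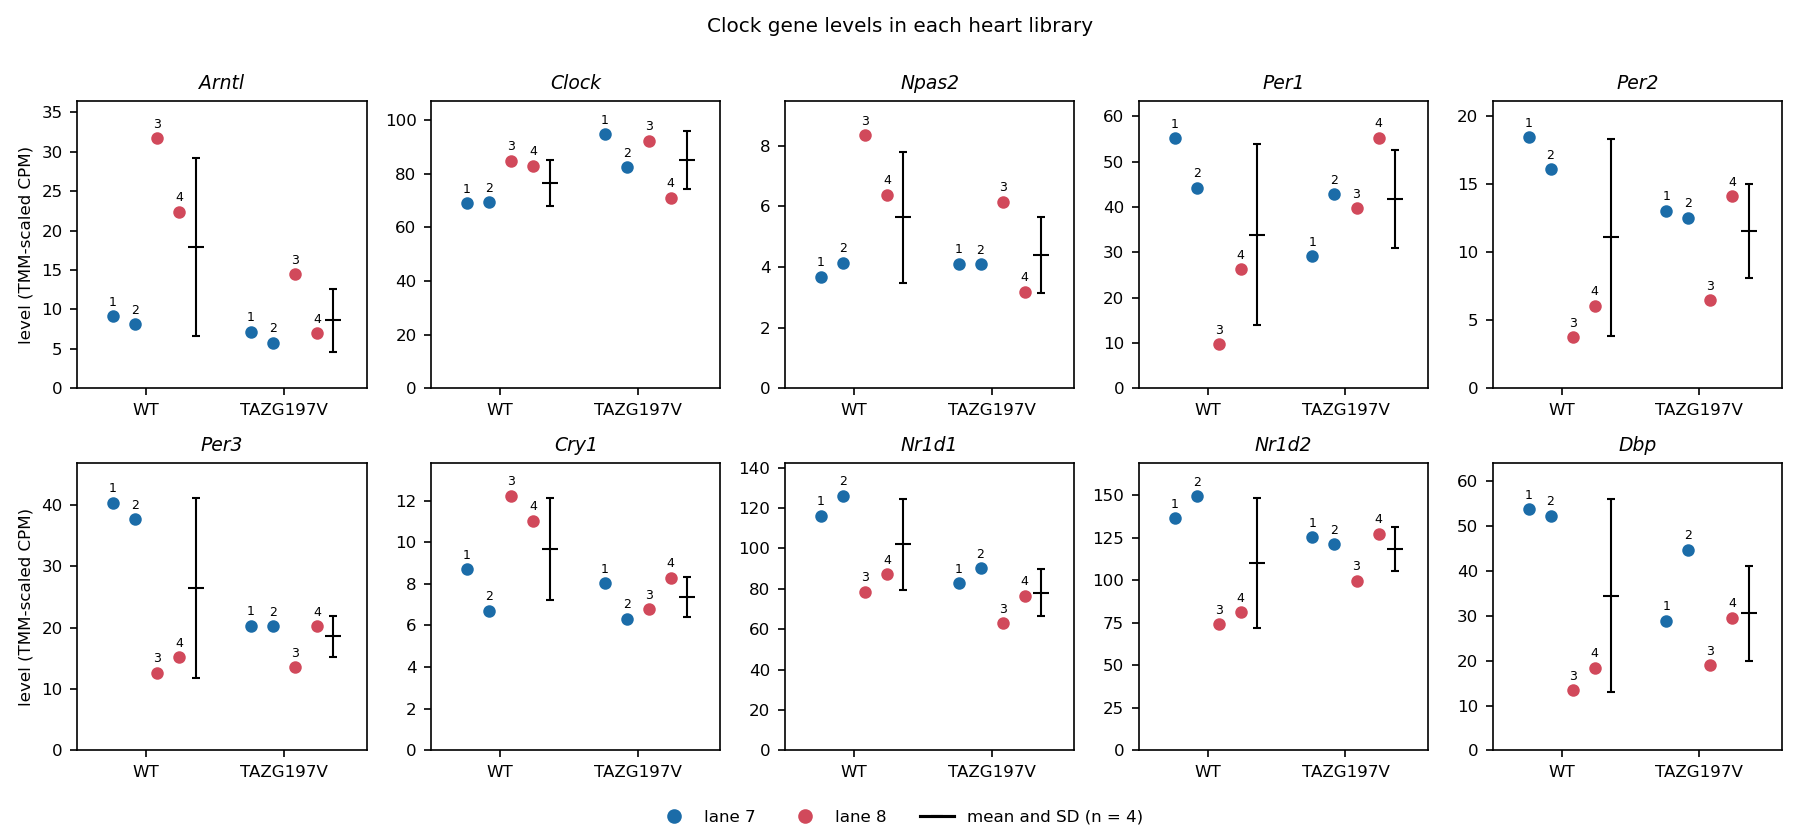
Level of each clock gene in each library (TMM-scaled CPM, linear axes from 0), with WT on the left and TAZG197V on the right of each panel, numbers giving the library, colour giving the sequencing lane, and bars giving mean and SD (n = 4). In WT, the lane 7 points (1 and 2) and the lane 8 points (3 and 4) did not overlap for any of the 10 genes, and the genotypes overlapped for all 10.

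In the activating limb, Arntl was at 9.17, 8.16, 31.7 and 22.4 CPM in WT 1 to 4 and at 7.19, 5.80, 14.5 and 6.97 CPM in TAZG197V 1 to 4. WT 3 and WT 4 stood above every other library and TAZG197V 3 came next. WT averaged 17.9 ± 11.3 CPM and TAZG197V 8.61 ± 3.95 CPM (SD, 4 libraries each). Arntl had a log2 fold change of −1.12 ± 0.35 (SE, 95% interval −1.93 to −0.30, adjusted p = 0.0372 by edgeR), which made Arntl the member with the greatest fall. With no surrogate variables in the model the change was −1.05 and edgeR's adjusted p was 0.127, and with 1 surrogate variable these were −1.05 and 0.124. DESeq2 with 2 surrogate variables gave −1.12 and did not call Arntl either (adjusted p = 0.0548), whereas with lane as a covariate in their place Arntl passed (−0.89, adjusted p = 0.0445 by edgeR). The call was also lost on omission of WT 3 (−0.70, adjusted p = 0.150 by edgeR) or WT 4 (−0.88, 0.0798), with smaller changes. It was lost on omission of TAZG197V 1 (−1.13, 0.0891) or TAZG197V 2 (−1.08, 0.0824) with changes of about the same size. Clock, whose product pairs with ARNTL, was at 69.0, 69.4, 84.8 and 82.9 CPM in WT and at 94.6, 82.5, 92.3 and 71.0 CPM in TAZG197V. Its log2 fold change of 0.12 ± 0.08 (95% interval −0.08 to 0.31) did not pass (adjusted p = 0.306 by edgeR). It passed as higher on omission of TAZG197V 4, the lowest of its group (0.25, adjusted p = 0.0234 by edgeR). Npas2, which can stand in for CLOCK, was at 3.69, 4.15, 8.35 and 6.38 CPM in WT and at 4.11, 4.10, 6.16 and 3.19 CPM in TAZG197V. As for Arntl, the highest library was WT 3, then WT 4, then TAZG197V 3. The log2 fold change of Npas2 was −0.45 ± 0.23 (adjusted p = 0.164 by edgeR), and it passed as lower on omission of WT 1 (−0.69, adjusted p = 0.0366).

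In the repressing limb, Cry1 encodes a main repressor of the CLOCK pair. It was at 8.69, 6.71, 12.2 and 11.0 CPM in WT and at 8.03, 6.31, 6.78 and 8.29 CPM in TAZG197V. WT 3 and WT 4 were again the highest, and WT 2 lay within the TAZG197V range. WT averaged 9.66 ± 2.46 CPM and TAZG197V 7.35 ± 0.956 CPM (SD, 4 libraries each), a log2 fold change of −0.45 ± 0.14 (95% interval −0.76 to −0.14, adjusted p = 0.0322 by edgeR). Cry1 did not pass with no surrogate variables (−0.39, adjusted p = 0.150 by edgeR), with lane as a covariate in their place (−0.37, 0.123) or with the replicate number as a block (−0.37, 0.1102), nor on omission of WT 3 (−0.29, 0.0770), WT 4 (−0.35, 0.0825), TAZG197V 2 (−0.44, 0.0652) or TAZG197V 4 (−0.41, 0.0613).

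The Per genes, whose proteins join CRY in the repressor complex, differed more between libraries of a genotype than between genotypes. Per1 was at 55.2, 44.3, 9.79 and 26.3 CPM in WT and at 29.2, 42.8, 39.7 and 55.3 CPM in TAZG197V. Per2 was at 18.4, 16.1, 3.77 and 6.07 CPM in WT and at 13.0, 12.5, 6.49 and 14.1 CPM in TAZG197V. Per3 was at 40.4, 37.6, 12.6 and 15.1 CPM in WT and at 20.3, 20.2, 13.6 and 20.2 CPM in TAZG197V. For all 3 genes WT 3 was the lowest of the 8 libraries, and for Per2 and Per3 TAZG197V 3 was the lowest of its genotype. The log2 fold changes were 0.47 ± 0.40 for Per1, 0.31 ± 0.41 for Per2 and −0.28 ± 0.29 for Per3, with adjusted p = 0.386, 0.566 and 0.481 by edgeR. The 95% intervals ran from −0.46 to 1.39, from −0.62 to 1.24 and from −0.95 to 0.40. Each interval spans 0 and leaves room for sizeable differences in either direction. On omission of WT 1 the values for Per1 and Per2 were 1.18 and 1.06, and both passed as higher (adjusted p = 0.0189 and 0.0413 by edgeR). Per3 passed as lower on omission of TAZG197V 4 (−0.44, adjusted p = 0.00315 by edgeR).

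In the second loop, Nr1d1 was at 116, 126, 78.6 and 87.3 CPM in WT and at 82.8, 90.3, 63.1 and 76.5 CPM in TAZG197V. WT 1 and WT 2 stood above the rest, and within each genotype the lane 8 libraries were the lower pair. The log2 fold change of −0.30 ± 0.13 (95% interval −0.61 to 0.00) had an adjusted p of 0.105 by edgeR. With lane as a covariate in place of surrogate variables it was −0.37 ± 0.09 and passed (adjusted p = 0.0159 by edgeR), and it passed as lower in 8 of 22 alternative fits in all, 3 of them on omission of WT 3, WT 4 or TAZG197V 4 (adjusted p = 0.0317, 0.0425 and 0.00752 by edgeR). Nr1d2, its paralog, was at 137, 150, 74.2 and 81.3 CPM in WT and at 125, 121, 99.7 and 127 CPM in TAZG197V. The TAZG197V libraries lay between the lane 7 and the lane 8 libraries of WT. The log2 fold change of Nr1d2 was 0.25 ± 0.15 (adjusted p = 0.216 by edgeR), and 0.50 on omission of WT 1 (adjusted p = 0.0157). The output factor Dbp was at 53.8, 52.3, 13.5 and 18.4 CPM in WT and at 28.9, 44.8, 19.0 and 29.6 CPM in TAZG197V. The TAZG197V libraries again fell between both pairs of WT libraries, and the log2 fold change of 0.11 ± 0.38 did not pass (adjusted p = 0.836 by edgeR), with a 95% interval from −0.77 to 0.99.

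**Figure D2:**
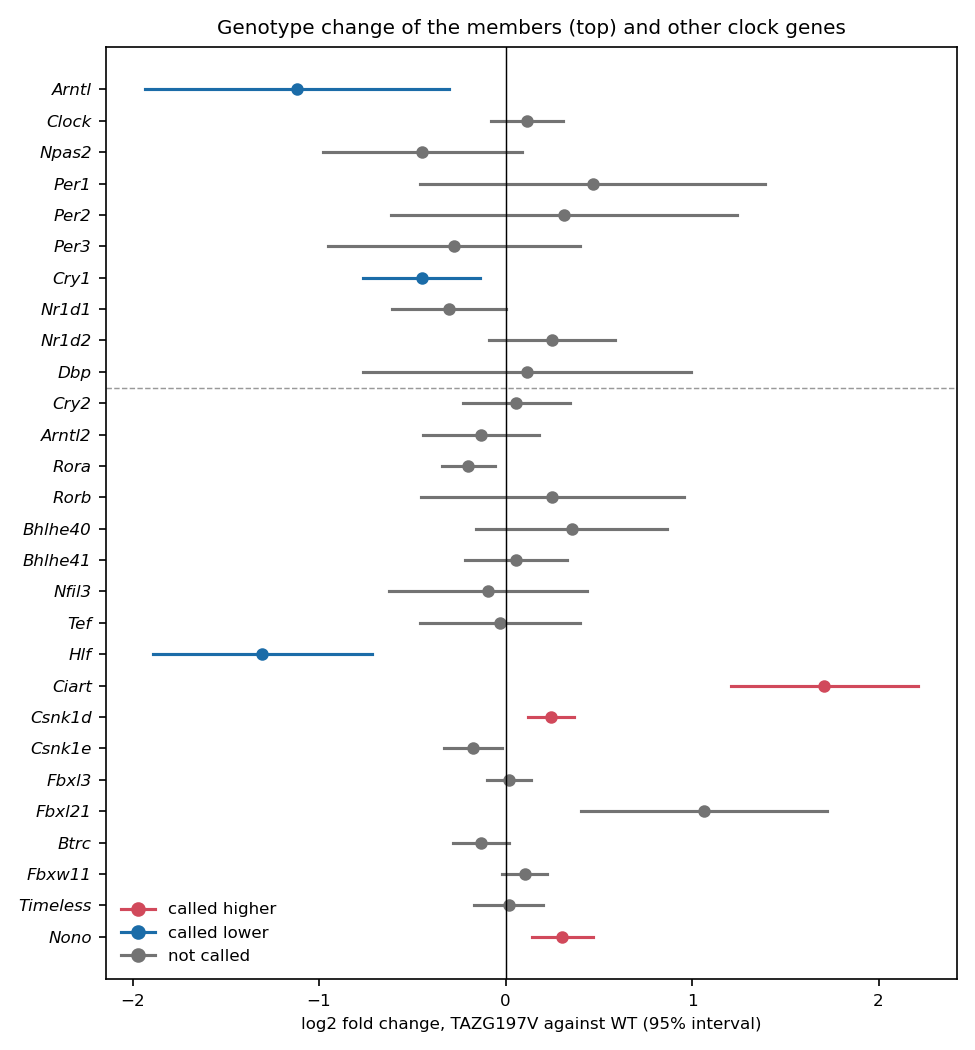
Fitted log2 fold change of TAZG197V against WT with its 95% interval for the 10 members (above the dashed line) and for further clock genes (below it), with called genes in colour. Hlf at −1.30 and Ciart at 1.71 lie farthest from 0, and among members only Arntl and Cry1 were called.

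Read by library rather than by genotype, the 10 genes split the WT hearts by lane. Within WT, the lane 8 libraries (3 and 4) did not overlap the lane 7 libraries (1 and 2) for 10 of 10 members, beside 37.0% of all genes. Arntl, Clock, Npas2 and Cry1 were higher in lane 8, and Per1, Per2, Per3, Nr1d1, Nr1d2 and Dbp were lower. The ratio of lane means within WT was 3.12-fold higher in lane 8 for Arntl, 1.88-fold for Npas2, 1.51-fold for Cry1 and 1.21-fold for Clock. It was 3.51-fold higher in lane 7 for Per2, 3.33-fold for Dbp, 2.81-fold for Per3, 2.75-fold for Per1, 1.84-fold for Nr1d2 and 1.46-fold for Nr1d1. Tested within WT alone by edgeR, with 2 libraries in each lane, 10 of 10 members were under an unadjusted p of 0.05 for lane, beside 6.33% of all genes. None passed the adjusted threshold (lowest adjusted p = 0.668 among members), nor did any of the 15084 genes. The members act in linked feedback loops, so these counts, and those for lane below, are not counts of independent genes.

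In TAZG197V the lane 8 libraries did not behave alike. TAZG197V 3 lay outside TAZG197V 1 and 2, on the side taken by the lane 8 libraries of WT, for 7 of 10 members (Arntl, Npas2, Per2, Per3, Nr1d1, Nr1d2 and Dbp), beside 15.1% of all genes. TAZG197V 4 did so for 2 of 10 (Cry1 and Nr1d1), beside 14.3% of all genes. It had the lowest Clock and Npas2 and the highest Per1, Per2, Cry1 and Nr1d2 of its genotype. Accordingly, the lanes were separated within TAZG197V for Nr1d1 alone among the members, or 1 of 10, beside 38.3% of all genes. Nr1d1 was also the 1 member under an unadjusted p of 0.05 for lane by edgeR, beside 6.57% of all genes, with none past the adjusted threshold. TAZG197V 4 was also the library with the most brain marker RNA, and WT 4, which carried some of it too, sided with WT 3.

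The ratio of Arntl to a gene of opposite phase within a library does not depend on how libraries are scaled. The log2 ratio of Arntl to Dbp was −2.55, −2.68, 1.24 and 0.28 in WT 1 to 4 and −2.01, −2.95, −0.39 and −2.09 in TAZG197V 1 to 4. Arntl thus exceeded Dbp in counts in WT 3 and WT 4 alone. The ratio to Nr1d1 was −3.66, −3.95, −1.31 and −1.96 in WT and −3.53, −3.96, −2.13 and −3.46 in TAZG197V. The ratio to Per3 was −2.14, −2.21, 1.33 and 0.57 in WT and −1.50, −1.80, 0.09 and −1.54 in TAZG197V. By each of the 3 ratios, WT 3, WT 4 and TAZG197V 3 were the top libraries in that order, and the other 5 lay together below. The ratio to Dbp averaged −0.93 ± 1.99 over WT and −1.86 ± 1.07 over TAZG197V (SD, 4 libraries each), a difference within the spread of either genotype. Between the lane 7 libraries alone the means were −2.62 in WT and −2.48 in TAZG197V, and between the lane 8 libraries alone they were 0.76 and −1.24 (2 libraries each, not tested).

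**Figure D3:**
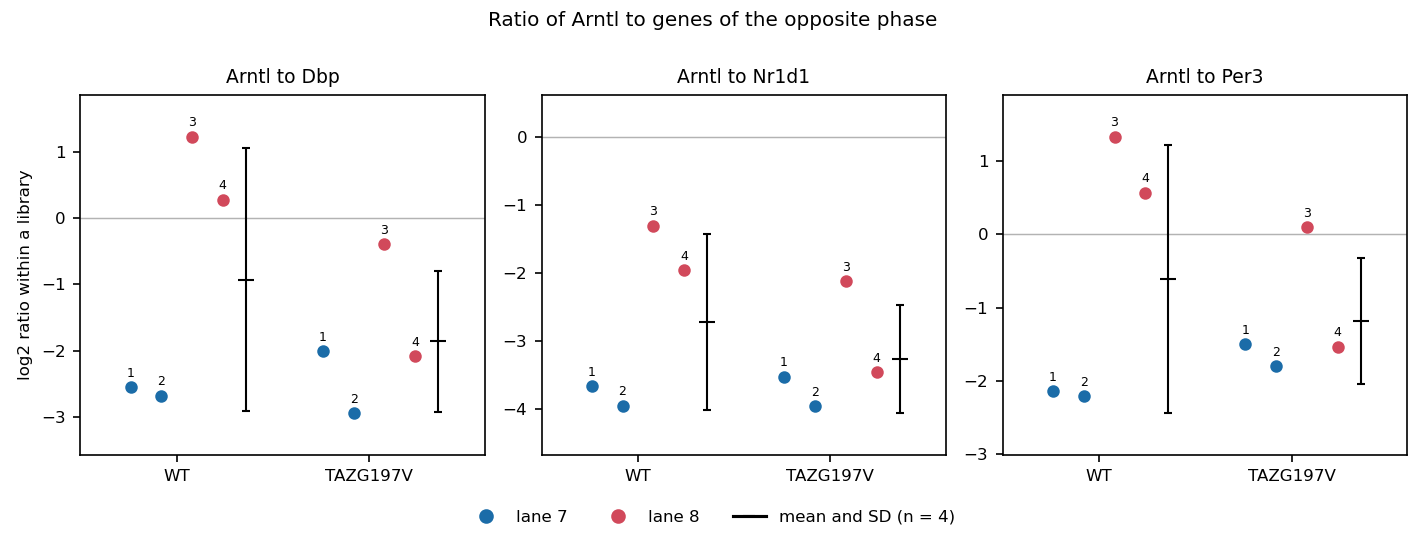
Log2 ratio of Arntl to Dbp, to Nr1d1 and to Per3 within each library, with library numbers, lane colours and mean and SD (n = 4) per genotype. WT 3, WT 4 and TAZG197V 3 are the top 3 points in every panel, and TAZG197V 4 sits with the lane 7 libraries.

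The fit of genotype with lane as a covariate also gave the difference between lanes over both genotypes, and the test of that difference was added after seeing the data. By edgeR 0 of 15084 genes passed an adjusted p of 0.05 for lane, and 6 of 10 members were under an unadjusted p of 0.05, beside 8.10% of all genes. The log2 difference of lane 8 to lane 7 was 1.20 ± 0.28 for Arntl, −1.16 ± 0.28 for Dbp, −1.04 ± 0.37 for Per2, −0.88 ± 0.26 for Per3, −0.50 ± 0.16 for Nr1d2 and −0.43 ± 0.09 for Nr1d1 (SE). The 4 members above that unadjusted threshold were Npas2 (0.55 ± 0.25), Cry1 (0.34 ± 0.16), Clock (0.08 ± 0.11) and Per1 (−0.51 ± 0.45). The median size of the lane difference was 0.53 in log2 units over the members and 0.10 over all genes, whereas the median size of the genotype difference in the same fit was 0.32 and 0.26.

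**Figure D4:**
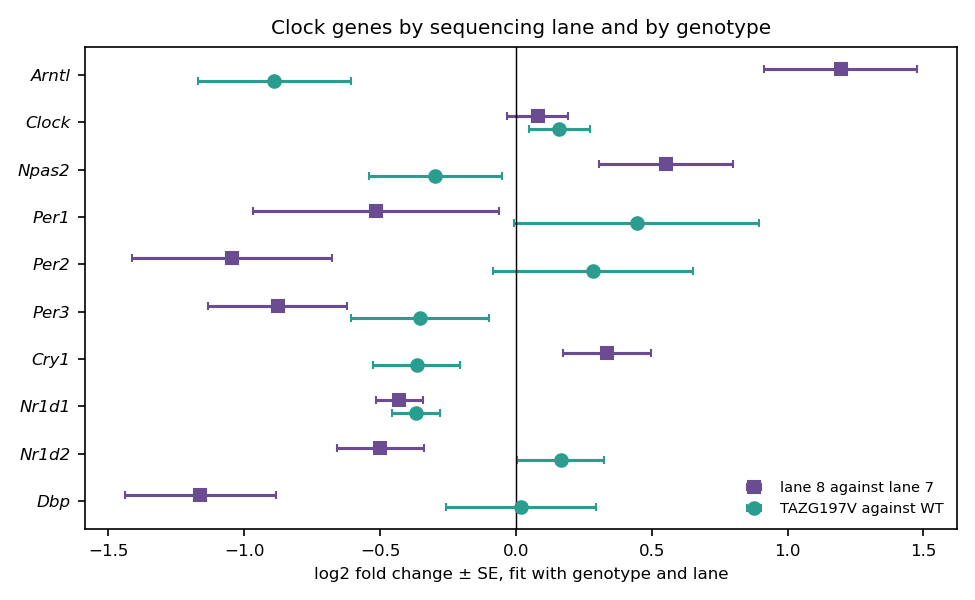
Log2 difference with its SE for each member from the fit with genotype and lane together, squares for lane 8 against lane 7 and circles for TAZG197V against WT. Arntl, Npas2 and Cry1 lie to the right for lane and to the left for genotype, and Dbp lies at −1.16 for lane but near 0 for genotype.

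The fitted genotype difference of several members had opposite signs in lane 7 and lane 8, though no member's genotype by lane term passed the adjusted threshold. Among the lane 7 libraries, Per1, Per2, Per3, Nr1d2 and Dbp had log2 differences of −0.46, −0.43, −0.94, −0.21 and −0.52 in TAZG197V against WT. Among the lane 8 libraries the same genes had differences of 1.39, 1.05, 0.27, 0.54 and 0.60. In lane 7, with 2 libraries per genotype, 4 of 10 members were called (Clock higher, and Per2, Per3 and Nr1d1 lower), beside 28.7% of all genes. In lane 8, 0 of 10 were called by edgeR, beside 0.289% of all genes, and 3 (Arntl, Cry1 and Nr1d2) were under an unadjusted p of 0.05. Arntl was lower in TAZG197V in both lanes, by −0.42 in lane 7 and −1.33 in lane 8, and passed in neither (adjusted p = 0.0736 and 0.242 by edgeR). Cry1 differed by −0.10 in lane 7 and by −0.63 in lane 8 (adjusted p = 0.697 and 0.199). The genotype by lane term was under an unadjusted p of 0.05 for 5 of 10 members, namely Per1, Per2, Per3, Nr1d2 and Dbp, beside 6.23% of all genes, and passed edgeR's adjusted threshold for none. The 2 surrogate variables of the genotype fit did not follow the lane. The first was high in both number 4 libraries (0.469 in WT 4 and 0.722 in TAZG197V 4, −0.274 to −0.121 in the others), and the second set WT 2 apart at −0.845.

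Of 19 further clock genes, 5 were called, 3 higher and 2 lower, and 7 showed no overlap between genotypes. Over all genes 33.5% were called and 33.2% did not overlap. Ciart encodes a repressor of the CLOCK pair and showed the greatest difference of these. It was at 3.65, 4.07, 2.17 and 1.74 CPM in WT and at 7.96, 9.90, 6.00 and 10.0 CPM in TAZG197V, so the genotypes did not overlap. Its mean was 2.91-fold higher in TAZG197V, with a log2 fold change of 1.71 ± 0.22 (adjusted p = 0.000624 by edgeR), and Ciart passed in 8 of 8 fits that left out 1 library. Within WT, Ciart was lower in lane 8, like the Per genes and Dbp.

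Hlf encodes a D-box factor of the same family as DBP and TEF. It was at 38.2, 33.1, 13.6 and 22.95 CPM in WT and at 10.8, 9.61, 8.00 and 12.1 CPM in TAZG197V, again with no overlap. The log2 fold change was −1.30 ± 0.26 (adjusted p = 0.00485 by edgeR), and Hlf also passed in 8 of 8 fits that left out 1 library. Its WT libraries were split by lane in the direction of Dbp, and WT 3 lay nearest to the TAZG197V range. Without both number 4 libraries Hlf did not pass with surrogate variables (−0.52, adjusted p = 0.0698 by edgeR), but it passed when the same 6 libraries were fitted without them (−1.58, adjusted p = 0.00750). Within lane 7 alone Hlf differed by −1.80 (adjusted p = 3.13e-05) and within lane 8 by −0.87 (adjusted p = 0.292 by edgeR). The relatives did not pass with it. Tef had a log2 fold change of −0.03 and Dbp of 0.11, and Nfil3, a repressor at the same D-boxes, of −0.09 (adjusted p = 0.916, 0.836 and 0.773 by edgeR). A difference between Hlf and its relatives was not itself tested.

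The other calls described among these genes were small. Csnk1d, a kinase that phosphorylates PER proteins, was higher by 0.24 (64.7 ± 0.877 CPM in WT, 76.3 ± 4.46 in TAZG197V, adjusted p = 0.00885 by edgeR). Nono, an RNA-binding protein known as a PER partner, was higher by 0.30 (adjusted p = 0.0112). Rora passed the adjusted threshold at −0.20 but did not reach the required fold, and Fbxl21 passed at 1.06 but did not reach the required count, with a mean of 23.7. Cry2, a relative of Cry1, had a log2 fold change of 0.06 and Bhlhe40 of 0.36, and neither passed (adjusted p = 0.737 and 0.238 by edgeR).

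**Figure D5:**
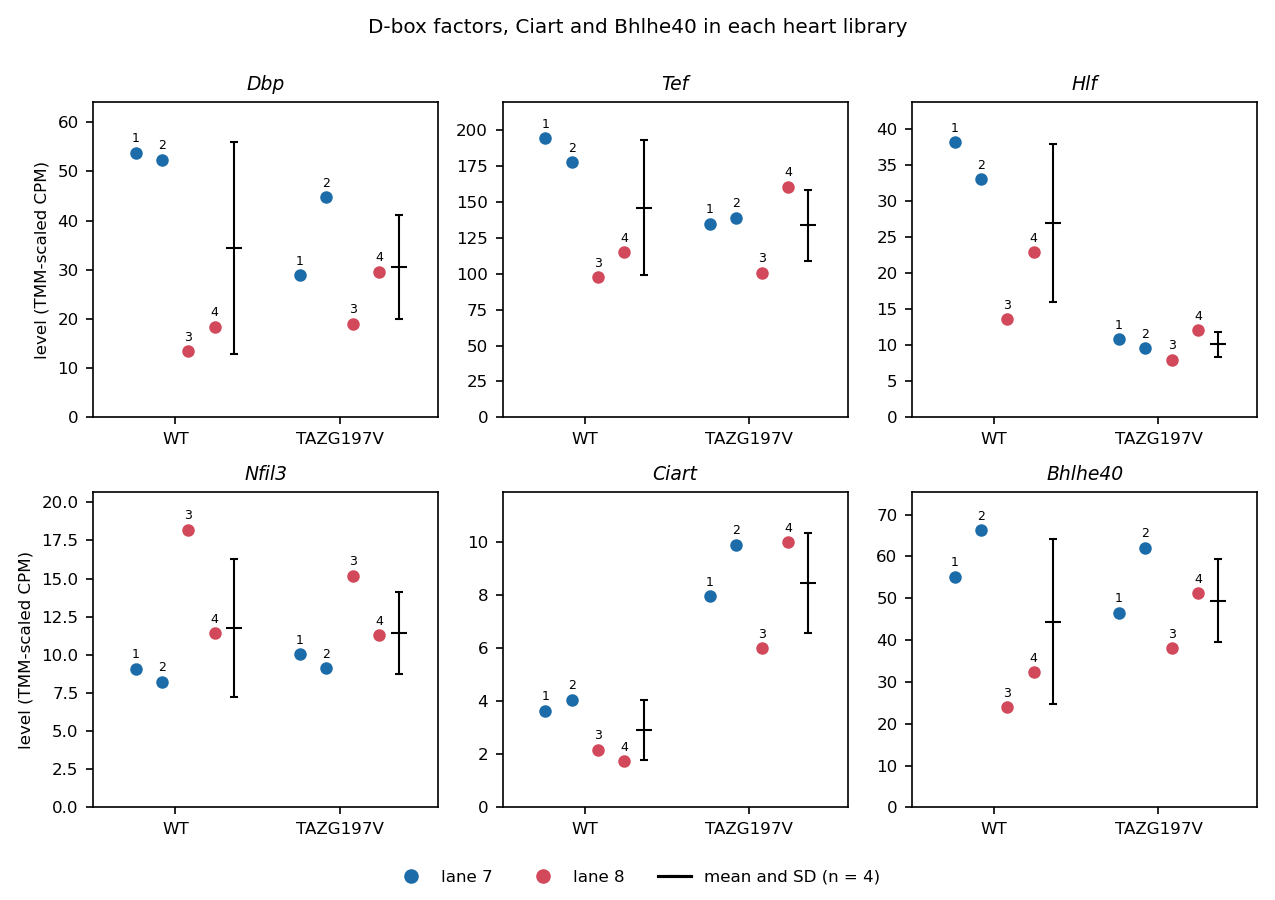
Level in each library (TMM-scaled CPM, linear axes from 0) of the D-box activators Dbp, Tef and Hlf, the D-box repressor Nfil3, and the clock repressors Ciart and Bhlhe40, with library numbers, lane colours and mean and SD (n = 4). Hlf and Ciart are the panels in which WT and TAZG197V do not overlap, while in Dbp and Tef the TAZG197V points lie among or between the WT points.

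Of 13 output genes of the heart clock, 3 were called, beside 33.5% of all genes. Tspan4, a tetraspanin, was higher by 0.70 ± 0.15 in log2 units (adjusted p = 0.00820 by edgeR), but it did not pass with no surrogate variables (0.56, adjusted p = 0.0919), and it was called in 16 of 22 alternative fits. Por, the electron donor of cytochrome P450 enzymes, was at 40.8, 40.3, 40.7 and 39.6 CPM in WT and at 60.3, 57.8, 57.8 and 43.1 CPM in TAZG197V, higher by 0.42 (adjusted p = 0.00194 by edgeR). Nampt, which makes a precursor of NAD, was lower by 0.28 on the log2 scale (212 ± 17.0 against 173 ± 21.1 CPM, adjusted p = 0.0402). The call on Nampt held on omission of WT 4 or TAZG197V 4 (adjusted p = 0.0113 and 0.0114 by edgeR) and was lost on omission of any of the other 6 libraries (log2 fold change −0.31 to −0.20, adjusted p = 0.0540 to 0.160). It was also lost with lane as a covariate (−0.29, 0.0599), with the replicate number as a block (−0.29, 0.0850) and without both number 4 libraries (−0.28, 0.119). Klf15 and Usp2, which are known to follow the clock in heart, did not pass (adjusted p = 0.1102 and 0.128 by edgeR).

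Signals that can shift clock genes, or that follow handling, were set beside them. Of 7 glucocorticoid-responsive genes, Mt2 (log2 fold change 2.26, adjusted p = 0.000206) and Sgk1 (0.53, adjusted p = 0.00241 by edgeR) were higher in TAZG197V, or 2 of 7, where 18.5% of all genes were called higher. Mt2, a metallothionein, averaged 1.69 ± 0.568 CPM over the WT and 7.78 ± 1.56 CPM over the TAZG197V libraries. Since 73.5% of its exon bases are shared with Gm45774 on the opposite strand, reads of these 2 genes cannot be told apart if strand was not used. Of 8 temperature-responsive genes, the chaperones Hsp90aa1 (1.21, adjusted p = 0.000541) and Hspa8 (0.41, adjusted p = 0.00917 by edgeR) were higher, or 2 of 8 beside the same 18.5%. Hsph1 (0.46) and Dnajb1 (0.26) had positive log2 fold changes but did not pass (adjusted p = 0.0850 and 0.0672 by edgeR). Hspa1a (−0.54) and Hspa1b (−0.65) had negative ones and did not pass either (adjusted p = 0.245 and 0.0629 by edgeR). The mean scaled counts of Hspa1a and Hspa1b were low, at 19.6 and 26.7. The cold-induced Cirbp and Rbm3 did not pass. Of 8 immediate early genes, which respond within minutes to stimuli, 0 were called by edgeR and 0 were under an unadjusted p of 0.05. Their summed level was 460 and 610 CPM in TAZG197V 1 and TAZG197V 2 and 96.5 to 240 CPM in the other 6 libraries. These genes also varied with lane, since 8 of 8 separated the lanes within TAZG197V, beside 38.3% of all genes, and 2 of 8 within WT, beside 37.0%. Of these genes 5 of 8 were under an unadjusted p of 0.05 for lane over both genotypes by edgeR, beside 8.10% of all genes. The median size of their lane difference was 1.14 in log2 units, beside 0.53 for the members and 0.10 over all genes. The part of these signals in the results on clock genes was not tested. The libraries 3 and 4 of WT can differ from libraries 1 and 2 in hour of collection, animal, lane and atrial tissue in the piece, which cannot be told apart here.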

How the data were processed

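RNA sequencing was done on pieces of heart from 4 WT and 4 TAZG197V mice, with single-end reads of 50 bases. Going by the study's methods, the authors converted reads with bcl2fastq 2.20.0, checked them with FastQC 0.11.9, aligned them to mm10 with STAR 2.7.3a and counted reads over exons with featureCounts (Subread 2.0.0). What was deposited are raw counts, 1 whole number for each Ensembl gene. Whether strand was used, how multiply aligned reads were treated and which annotation release was applied are not given in the sources used here, so a gene that overlaps another can lose or gain reads. Each file held 55471 genes and 92 spike-in rows, which held 0 counts and were left out. Symbols came from GENCODE for 55230 genes and were missing for 241.

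Genotypes were compared with edgeR 4.0.16 in R 4.3.3 (filterByExpr, TMM scaling, two-sided quasi-likelihood F-test, Benjamini-Hochberg adjustment over 15084 genes), with 2 surrogate variables from svaseq (sva 3.50.0, genotype protected, seed 1). Called genes had an adjusted p under 0.05, a fitted level more than 15% higher in one genotype and a mean scaled count of at least 50. Levels are TMM-scaled CPM. The procedure was tested on simulated counts. Totals of 23055689 to 36301031 reads leave the spread between libraries as the main error. Chi-square per gene between libraries of a genotype was at least 10.2, so none was a repeat of another.

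Same-numbered WT and TAZG197V libraries deviated together with correlations of 0.0436 to 0.416 across genes, beside −0.464 to 0.317 for different numbers, and numbers were not taken to pair animals. Alternatives were DESeq2 1.42.0, other numbers of surrogate variables, lane or the replicate number as covariate, other scalings, no low-count filter, other thresholds and omission of libraries. The lane comparison and the fit without both number 4 libraries and without surrogate variables were added after seeing the data. The members and lists were chosen with earlier results of these data known. All members are named, and of the other lists the called genes and those needed to state what did not pass. The values of 1 further clock gene, which is part of the counts, are not reported here.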

Additional observations from a re-analysis of the deposited data

Results flagged for a closer look

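Within each genotype, the highest and the lowest of the 4 libraries were compared with their nearest neighbour for 50 sets of values, and 5 sets had a gap, taken on the log2 scale, above Dixon's 95% critical share of the whole range, where chance alone gives about 1 in 20, or 2.5 sets. TAZG197V 3 was low for Per2 (6.49 CPM against 12.5 to 14.1 CPM in the other 3, a gap of 0.846 of the range) and for Per3 (13.6 CPM against 20.2 to 20.3 CPM, 0.985), and it was high for the log2 ratio of Arntl to Per3 (0.09 against −1.80 to −1.50, 0.841). TAZG197V 4 was low for Por (43.1 CPM against 57.8 to 60.3 CPM, 0.875). WT 2 was low for Sgk1 (48.7 CPM against 54.6 to 55.8 CPM, 0.834).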

How the results depend on the processing

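The number of members called depended on the model. It was 2 in the fit reported, 0 with no surrogate variables, with 1 surrogate variable, among lane 8 libraries, or with no surrogate variables and without both number 4 libraries, 1 by DESeq2 without surrogate variables, with no low-count filter or at a fold beyond 1.5, 4 among lane 7 libraries, 5 without both number 4 libraries, and 0 to 6 on omission of 1 library. Of all genes, 33.5% were called in the fit reported, 28.7% among lane 7 libraries and 0.289% among lane 8 libraries. Without both number 4 libraries the share was 17.4%, or 30.6% with no surrogate variables, and on omission of 1 library it was 24.1% to 34.6%. No such share is given here for DESeq2, for no low-count filter or for fewer surrogate variables in all 8 libraries. Arntl was called in 11 of 22 alternative fits (log2 fold change −1.80 to −0.42) and Cry1 in 9, and both kept their direction in all 22. The other members did not: Dbp changed sign in 10 fits, Per2 in 5, Per3 and Nr1d2 in 3 each, and Clock, Npas2, Per1 and Nr1d1 in 1 each. Per2 reversed with a call among lane 7 libraries, to −0.43. With the replicate number as a block, 2 members were called, and Arntl had −0.92 (adjusted p = 0.0242 by edgeR), Cry1 missed (0.1102) and Nr1d1 passed (0.0104). That block gave 4272 calls over all genes.

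Over all genes the count was 4455 among lane 7 libraries (28.7%), 45 among lane 8 libraries (0.289%), 2649 without both number 4 libraries (17.4%) and 1843 at a fold beyond 1.5. On omission of 1 library it was 3675 to 5243 (24.1% to 34.6%). For further clock genes it was 0 among lane 8 libraries and 2 at the stricter fold. Output genes gave 0 among lane 8 libraries, 5 without both number 4 libraries, 1 at the stricter fold and 2 to 5 on omission of 1 library. Glucocorticoid-responsive genes gave 4, 0, 4 and 1 among lane 7 libraries, among lane 8 libraries, without both number 4 libraries and at the stricter fold, and 2 to 4 on omission of 1 library. Temperature-responsive genes gave 4, 0, 1 and 1 in the same settings, 4 with no low-count filter and 2 to 4 on omission of 1 library. Immediate early genes gave 4 with no low-count filter, 6 among lane 7 libraries and 0 to 5 on omission of 1 library. The cause of these changes was not tested, except that the lane and stricter-fold settings hold fewer libraries or a stricter threshold by construction. Ciart was called in 21 of 22 alternative fits, missing among lane 8 libraries (adjusted p = 0.120 by edgeR). Other scalings moved no level of a member by more than 0.0657 in log2 units. Surrogate variables, 2 libraries per lane and genotype, and the lack of a collection time limit what the members can show about genotype.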
